A study of Mus musculus with 4 samples.

Results

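This report covers 120 probes on the 4 arrays of RAW264.7 cells stimulated with CpG ODN. Their values were more than 2-fold below that of 0 h at 4 h and more than 2-fold above it at 16 h. For 33 of them no spot was well above background at 4 h, so that the fall is a bound, which was over 2-fold for 9. The 120 probes are among the 97836 probes other than controls that the array carries, and 65 are lncRNA probes and 55 are mRNA probes. The probes were chosen from the values themselves. For each probe, the level is the mean log2 intensity of its spots minus the 75th percentile of the array over all probes. A probe was taken when all of its spots were well above background at 0 h, its level at 4 h was lower by over 1 on the log2 scale and its level at 16 h was higher by over 1. Probes named by NR_ accessions, the curated noncoding entries of RefSeq, were left out. The 4 h and 16 h values of the 120 probes are therefore given as a description, and the 8 h array was not used in the choice.

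RAW264.7 cells are an established mouse line with macrophage properties. All 4 samples carry the treatment label 1 µM ODN1826, a synthetic oligonucleotide with unmethylated CpG motifs, and they were harvested at 0, 4, 8 and 16 h. There was 1 array with 1 dye (Cy3) per time point, so that no difference between time points has a replicate check, and no test across samples was made. Time cannot be told apart from differences of culture, extraction, labelling or array, nor fewer cells that express a transcript from less of it per cell. No gene name stands beside an mRNA probe in the files, so the macrophage markers could not be looked up and the 55 mRNA probes are described by their numbers.

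TLR9 is an endosomal receptor that binds unmethylated CpG DNA. It signals through MyD88 to NF-κB and AP-1, and the genes it controls respond in waves, with cytokine and feedback genes first and secondary responses later. The amount of an RNA at each time depends on its synthesis and on its decay, and many lncRNAs are short-lived. Neat1, the best known lncRNA among the 65, is the RNA scaffold of paraspeckles, which are nuclear bodies that hold RNA-binding proteins.

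Of the 70922 probes with all spots well above background at 0 h and no NR_ name, 5.44% were lower at 4 h by over 2-fold (4.75% of mRNA and 5.97% of lncRNA probes) and 7.77% were higher at 16 h by over 2-fold (9.25% and 6.63%). Both were true of 0.169%, which are the 120 probes. By class, 55 of 30676 mRNA probes (0.179%) and 65 of 40246 lncRNA probes (0.162%) had the pattern. The opposite pattern, higher at 4 h and lower at 16 h, was found for 145 probes or 0.204% under the same filter, 64 of them mRNA (0.209%) and 81 lncRNA (0.201%). Among the probes lower at 4 h, those that were higher at 16 h made up 3.77% of the mRNA and 2.71% of the lncRNA probes.

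The 65 lncRNA probes comprised 29 NONCODE transcripts (0.142% of those above background at 0 h), 25 RIKEN cDNA clones (0.216%), 8 predicted RefSeq transcripts (0.108%), 2 of 214 ultraconserved elements and the probe of Neat1. The RefSeq gene table of GRCm38.p6 named 5 of the 65, by accession, by clone name or by the symbol in the probe name. These were Neat1, Bcas3os1 (clone 8430403D17), 4933427I04Rik, Gm38762 (XR_868771.1) and Gm36656 (XR_391270.2). Of all 40246 lncRNA probes that passed the filter, the same lookup named 3087. The array was designed on another build, mm9, so the table was used for names and neighbours only. Bcas3os1 overlaps the protein-coding gene Bcas3, and the other 4 overlap no protein-coding gene. Their nearest protein-coding genes are Frmd8 for Neat1, Asb4 for Gm38762, Tshz3 for Gm36656 and Gm31309 for 4933427I04Rik. None of the nearest and flanking genes was in the lists of TLR9 and NF-κB, inflammatory, interferon, immediate early, cell cycle, stress or lysosomal genes. No other probe with a RefSeq accession, clone name or symbol was matched to any of the 5 genes. The mRNA, NONCODE, Ensembl and ultraconserved probes were not looked up, so further probes of these genes may exist among them.

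RefSeq promoter sequences of GRCm38.p6, from 250 bases before to 50 after the start of the gene, were on hand for 4 of the 5 genes and not for Neat1. They are shown for Gm38762, the only one with a motif match, and for Bcas3os1, the brightest of them. Capitals mark the letters of any motif match, searched on both strands.

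Gm38762, chr6:5362065-5362364, plus strand: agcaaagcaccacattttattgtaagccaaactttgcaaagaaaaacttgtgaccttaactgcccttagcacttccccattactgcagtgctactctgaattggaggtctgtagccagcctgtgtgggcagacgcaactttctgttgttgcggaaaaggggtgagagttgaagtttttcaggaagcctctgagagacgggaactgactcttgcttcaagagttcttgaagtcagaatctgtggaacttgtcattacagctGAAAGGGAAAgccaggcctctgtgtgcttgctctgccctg

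Bcas3os1, chr11:85719695-85719994, minus strand: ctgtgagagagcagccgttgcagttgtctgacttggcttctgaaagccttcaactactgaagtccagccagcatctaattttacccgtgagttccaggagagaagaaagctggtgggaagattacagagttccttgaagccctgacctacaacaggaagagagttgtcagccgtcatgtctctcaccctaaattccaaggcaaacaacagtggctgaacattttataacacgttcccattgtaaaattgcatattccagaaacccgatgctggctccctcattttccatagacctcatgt

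The motifs searched were GGG and CC with any 5 bases between them for NF-κB, TGANTCA for AP-1, GAAA and GAAA with any 2 bases between them for an interferon response element and CACGTG for an E-box. The only match in the 4 promoters was 1 interferon response element in that of Gm38762, and 3.44% of the 32851 promoters of this length in the table hold such a match. The NF-κB letters were found in 50.8% of all promoters, those of AP-1 in 7.81% and those of the E-box in 7.15%. These matches describe letters and not binding sites.

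Across the 55 mRNA probes, the log2 difference of 4 h from 0 h had a median of -1.39, and the difference of 16 h from 0 h had a median of 1.35 and reached 4.75. For the 65 lncRNA probes, the medians were -1.31 at 4 h and 1.31 at 16 h, with a highest 16 h value of 3.35. The 4 h medians include probes below background at 4 h, whose values are not exact. Where all spots were above background at 4 h, the 4 h median was -1.31 for 37 mRNA and -1.28 for 43 lncRNA probes, and the lowest values were -2.26 and -2.59. These sizes are set in part by the limits, and 43 of the 120 probes lay within 0.1 of a limit, while 57 probes lay outside by no more than 0.1. The nearest lncRNA inside was NONMMUT049487, with 1.0 at 16 h and a 4 h level below background, at least 3.5-fold lower than at 0 h, and the nearest outside was NONMMUT003748, with -1.23 and 0.998. NONMMUT004731, the next inside, had -1.18 and 1.01, and clone B930001N02, the next outside, had -1.02 and 0.998. Of the mRNA probes, the 2 nearest inside had 4 h differences of -1.32 and -1.0 and 16 h differences of 1.01 and 4.75, and the 2 nearest outside had 4 h differences of -0.999 and -0.995 with 16 h differences of 1.0 and 1.12.

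**Figure D1:**
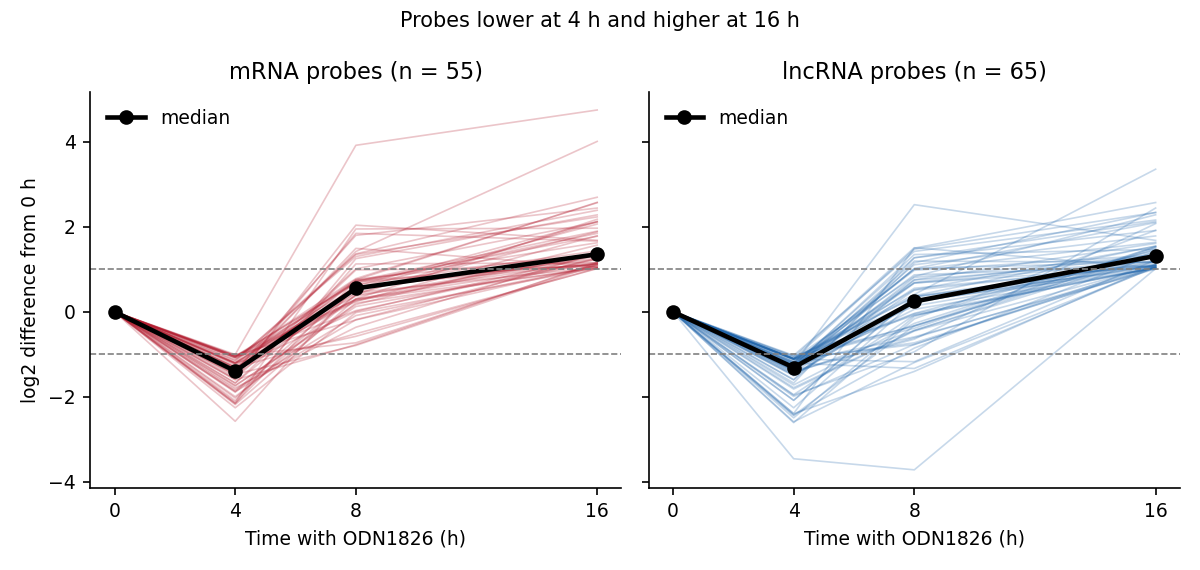
Log2 difference from 0 h (y axis) against the time with ODN1826 in hours (x axis) for the 55 mRNA and 65 lncRNA probes, with 1 thin line per probe, the median in black and dashed lines at the limits of -1 and 1. The 4 h and 16 h values were used to choose the probes, and at 8 h the median was 0.55 for mRNA and 0.24 for lncRNA.

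The 8 h array was not used to choose the probes, although its difference from 0 h shares the 0 h array. For the mRNA probes the median of this log2 difference was 0.55, with quartiles of 0.19 and 0.88, where all mRNA probes that passed the filter had a median of 0.08. The lncRNA probes had a median of 0.24, with quartiles of -0.39 and 0.83, against 0.05 for all lncRNA probes. The 8 h level was above that of 0 h for 83 of the 120 probes (69.2%, against 55.5% of all), for 45 of 55 mRNA probes (81.8%, against 57.2% of all) and for 38 of 65 lncRNA probes (58.5%, against 54.1% of all). The lncRNA probes thus lay on both sides of the 0 h level at 8 h, while most of the mRNA probes lay above it. The 145 probes with the opposite pattern had a median of -0.44 at 8 h.

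At 8 h, 89 of the 120 probes were within 2-fold of the 0 h level (74.2%, against 87.3% of all that passed the filter), 42 of mRNA (76.4%, against 87.4%) and 47 of lncRNA (72.3%, against 87.1%). Higher by over 2-fold were 26 (21.7%, against 5.08%), which were 13 of 55 mRNA probes, where 5.51% of all were, and 13 of 65 lncRNA probes, where 4.75% of all were. Lower by over 2-fold were 5 (4.17%, against 7.65%), with 0 mRNA probes, where 7.04% of all were, and 5 lncRNA probes (7.69%, against 8.11% of all). Of the 26, 6 had an 8 h level above that of 16 h. Of the 5, NONMMUT070470 and NONMMUT074771 had no spot well above background at 8 h.

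**Figure D2:**
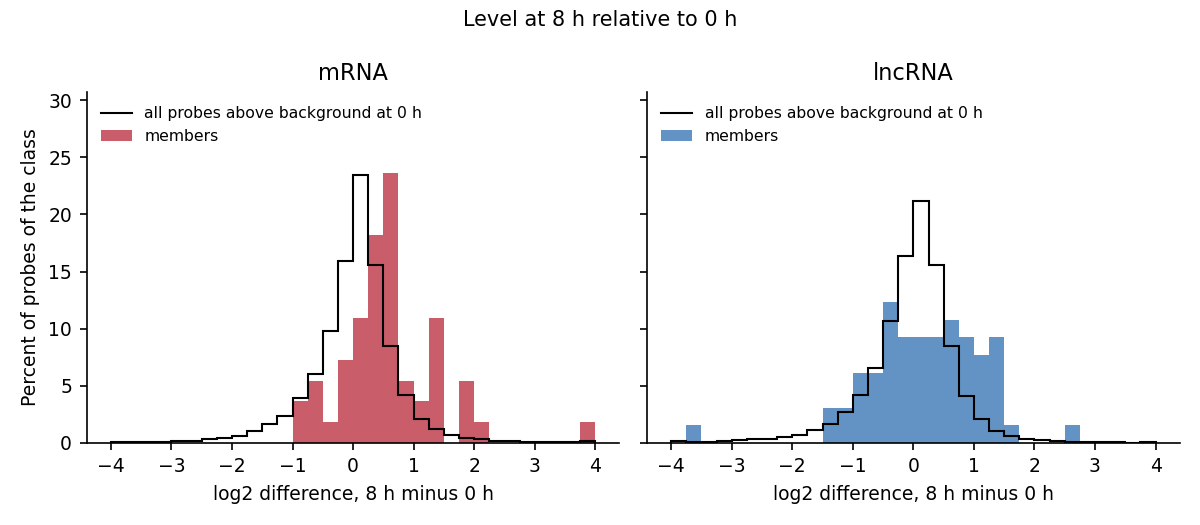
Percent of probes of a class (y axis) by log2 difference of 8 h from 0 h (x axis, bins of 0.25) for the probes lower at 4 h and higher at 16 h (bars, 55 mRNA and 65 lncRNA) and for all probes above background at 0 h (black outline). The mRNA bars lie mostly right of 0, and the lncRNA bars spread to both sides.

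The difference between the classes at 8 h varied with signal strength and with which probes were taken. Among the 80 probes with all spots above background on all 4 arrays, the medians were close, 0.37 for mRNA and 0.35 for lncRNA. By intensity at 0 h, the medians of the 8 h difference for mRNA and lncRNA were 0.74 and 0.27 under 50, 0.54 and 0.06 from 50 to 300, and 0.29 and 0.37 over 300. Among the brightest probes, 20 of mRNA and 13 of lncRNA, the medians were thus closer together and their order was the other way. With normexp background correction, which adds an offset and shrinks the differences of dim spots, the medians over the same 120 probes were 0.31 and 0.11. Only 18 mRNA and 7 lncRNA probes still had the pattern with normexp, and their medians were 0.24 and 0.89. The mRNA probes all had 2 spots, and among the lncRNA probes with 2 spots the median was 0.14, against 0.30 for those with 1 spot. With 1 array per time point, mRNA and lncRNA were not tested against each other.

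Signal strength differed between the probes of this pattern and the other probes. The median intensity at 0 h was 160 for the 55 mRNA probes, where all mRNA probes that passed the filter had 570, and 81.4 for the 65 lncRNA probes, against 143. At 4 h the median was 48.0 for mRNA and 24.7 for lncRNA, and at 16 h it was 385 and 165. That these lie below and above the 0 h medians follows from how the probes were chosen. The share of probes with the pattern fell with brightness, from 0.303% of those with an intensity under 50 at 0 h to 0.180% from 50 to 300 and 0.104% over 300. For mRNA this share ran from 0.517% to 0.107%, and for lncRNA from 0.218% to 0.0987%. The part of signal strength in the pattern was not tested.

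At 4 h, 33 of the 120 probes had no spot well above background, 13 of mRNA and 20 of lncRNA. For these the 4 h value is a bound, set against the dimmest probe that was well above background on the 4 h array, or against the probe itself where it was brighter than that. This limit, an intensity of 13.9, is a low one. Some brighter spots were not well above background, such as 1 of A_55_P2302651 with 17.0 at 4 h. With a higher limit, the bounds here and elsewhere in the text could be smaller. The bounds ran from at least 1.06-fold to at least 4.58-fold lower at 4 h than at 0 h, and 9 of the 33 were over 2-fold. For the rest of the 33, a 2-fold fall was not measured. Against 4 h, the 16 h level of the 33 probes was higher by at least 2.26-fold to at least 21.9-fold. All spots were well above background at all 4 time points for 80 probes, 37 of mRNA and 43 of lncRNA. Among all probes that passed the filter, 2.41% had no spot well above background at 4 h. A larger share among the 120 follows in part from the choice of probes with a low 4 h value.

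**Figure D3:**
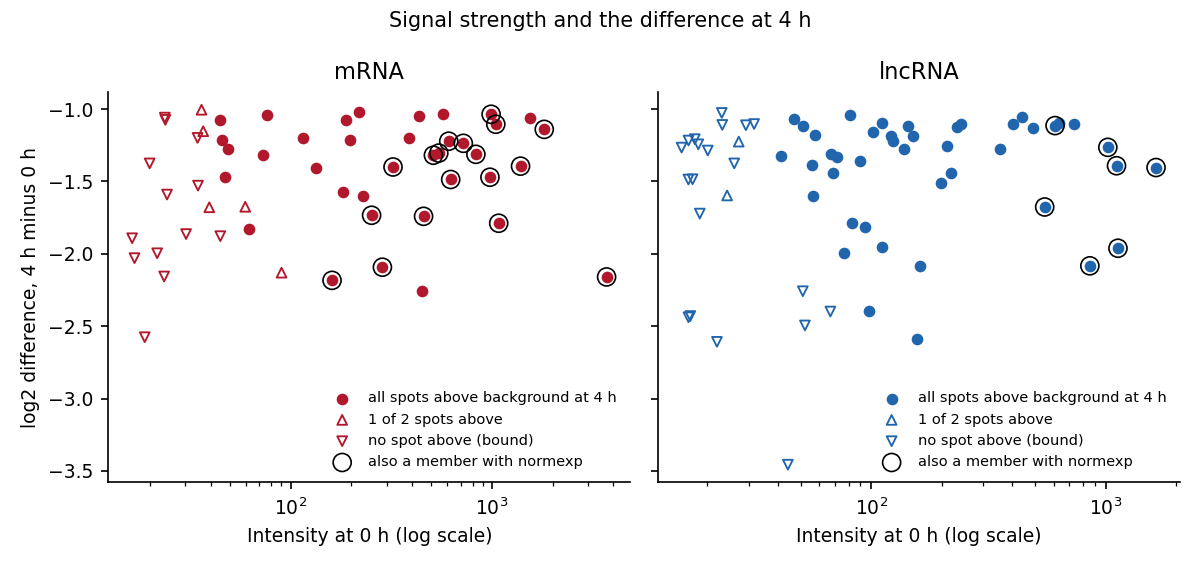
Log2 difference of 4 h from 0 h (y axis) against the intensity at 0 h (x axis, log scale) for the 55 mRNA and 65 lncRNA probes. Filled circles have all spots well above background at 4 h, open triangles pointing up have 1 of 2 and those pointing down have none, and rings mark the 25 probes that had the pattern with normexp too, none of which had an intensity under 50.

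With normexp background correction, 25 of the 120 probes had the pattern, 18 of mRNA and 7 of lncRNA, and no other probe had it. The direction at both 4 h and 16 h was the same for all 120 probes, while the median log2 difference at 4 h became -0.80 for mRNA and -0.63 for lncRNA. At 16 h the medians became 1.07 and 0.86. Of the 33 probes with an intensity over 300 at 0 h, 22 had the pattern under both settings, and of the 41 under 50, 0 did.

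The spots of a probe on the same array are the only replication. They cover noise between spots and not that between cultures. Of the 92 probes with 2 spots, both spots passed both limits for 58, and the signs at 4 h and 16 h were the same in both spots for 91. The exception, clone 9630015E22, had intensities of 12.1 and 162 at 16 h, and its spots were 20.4 and 17.0 at 0 h. Its rise thus rests on a single spot. The median gap between the spots was 0.23 in the log2 difference at 4 h, 0.11 at 8 h and 0.12 at 16 h, so that the 4 h values were the least precise.

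When probes were chosen on 1 spot alone and read from the other spot of the same arrays, the second reading was not part of the choice. The first spot chose 94 probes, 61 of mRNA and 33 of lncRNA. In the second spot, their median log2 difference was -1.22 at 4 h and 1.38 at 16 h, and 60 of the 94 passed both limits there. The second spot chose 113 probes, whose first spots had medians of -1.21 and 1.32, and 60 of the 113 passed both limits. Nearly all had the same signs in the other spot, 89 of 94 and 108 of 113. For lncRNA the share that passed again was 63.6% in one direction and 39.2% in the other. Read from the spot not used, the median 8 h difference was 0.57 and 0.56 for mRNA and 0.41 and -0.07 for lncRNA.

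**Figure D4:**
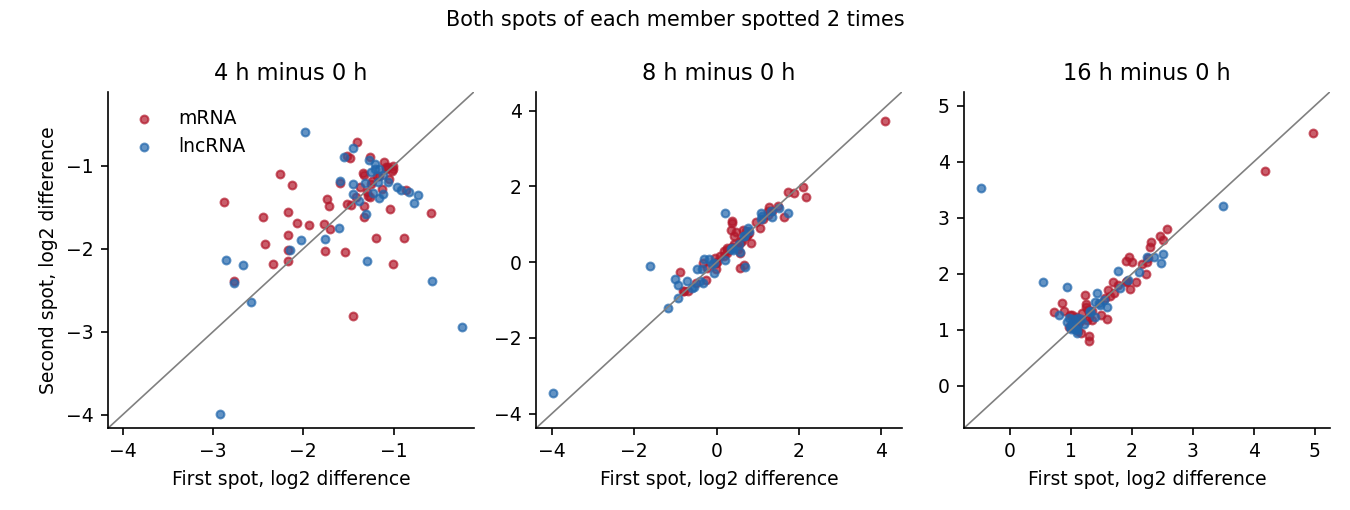
Log2 difference from 0 h in the second spot (y axis) against that in the first spot (x axis) for the 92 probes with 2 spots, at 4, 8 and 16 h, with the line of equal values. The points scatter most at 4 h, where the median gap was 0.23, and clone 9630015E22 stands apart at 16 h.

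The brightest lncRNAs of this pattern were above background on all arrays. XR_879484.1, a predicted noncoding transcript, had levels of 1.63, 0.22, 0.98 and 3.70 (0, 4, 8 and 16 h), with intensities from 587 to 5711. NONMMUT033625, a NONCODE transcript, had 1.09, -0.87, 0.14 and 3.53, with intensities of 1127, 274, 545 and 5067. Both were still lower than at 0 h after 8 h, and most of their rise fell between 8 h and 16 h, with steps of 2.72 and 3.38 on the log2 scale against 0.76 and 1.02 from 4 h to 8 h. For NONMMUT033625 the fold change from 4 h to 16 h was 21.1, and its spots gave 16 h differences of 2.52 and 2.36. For XR_879484.1 it was 11.1, with 2.11 and 2.04 in the spots.

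Other lncRNAs had passed the 0 h level by 8 h. The level of clone F830031D05 was 0.05, -1.63, 1.32 and 1.96 over the time course. NONMMUT039088 had 0.20, -0.92, 1.67 and 2.53 in the same order, and its log2 difference from 0 h at 16 h was 2.34. NONMMUT027727 had 0.94, -0.32, 2.05 and 2.73. In these 3, the step from 4 h to 8 h (2.95, 2.59 and 2.37 on the log2 scale) was larger than that from 8 h to 16 h (0.64, 0.87 and 0.68). Clone A130087A19 and XR_861642.1 had 4 h differences of -2.08 and -1.39, 8 h differences of 0.37 and 0.81 and 16 h differences of 1.55 and 1.32. These 7 lncRNAs are those that had the pattern with normexp as well, and their median difference at 8 h was 0.89 under that setting.

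Of the lncRNAs with a lower signal at 0 h that were above background on all arrays, NONMMUT064459 had levels of -0.59, -1.87, 0.75 and 0.88 at 0, 4, 8 and 16 h. It differed little between 8 h and 16 h. NONMMUT003541 had -2.89, -4.22, -1.70 and -1.73, so that its 8 h and 16 h levels lay within 0.03 of each other. NONMMUT008745 rose from -3.33 at 4 h to -1.42 at 8 h and -0.79 at 16 h, from -2.11 at 0 h. XR_885357.1 was again the slower kind, with -2.95, -4.39, -3.39 and -1.64. With normexp, the 4 h differences of these 4 were -0.93, -0.46, -0.65 and -0.52, within 2-fold of 0 h. Their 16 h differences under that setting were 1.23, 0.72, 1.03 and 0.82. Those of NONMMUT003541 and XR_885357.1 were thus within 2-fold as well.

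The levels of Neat1 were -4.18, -5.29, -3.78 and -0.83 over the time course, with intensities of 29.2, 12.8, 36.0 and 247. It had the highest 16 h difference from 0 h of the 65 lncRNAs, 3.35 on the log2 scale or 10.2-fold, with 3.5 and 3.21 in its spots. The rise at 16 h came after a level at 8 h that was within 2-fold of 0 h. At 4 h no spot was well above background. By the limit used for such probes, Neat1 was at least 2.0-fold lower at 4 h than at 0 h. By the same limit, Neat1 was at least 20.4-fold higher at 16 h than at 4 h. With normexp the log2 difference was -0.22 at 4 h and 1.99 at 16 h, so that its lower level at 4 h lay within 2-fold of 0 h under that setting while its rise at 16 h did not.

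The other named lncRNAs had smaller differences at 16 h. Bcas3os1, transcribed from within the Bcas3 locus, has 1 spot and had levels of -0.27, -1.33, -0.61 and 1.14 at 0, 4, 8 and 16 h. The levels of 4933427I04Rik were -2.70, -3.75, -2.79 and -1.67, and its spots gave 4 h differences of -0.73 and -1.35. Both were back near the 0 h level at 8 h. Gm38762 had -3.35, -5.84, -3.46 and -1.88, and at 4 h, with no spot well above background, it was at least 3.57-fold lower than at 0 h. Gm36656 was dim throughout, with intensities from 2.98 at 4 h to 35.8 at 16 h, and at 4 h it was at least 1.16-fold lower than at 0 h. All 4 were within 2-fold of 0 h at 4 h with normexp, with log2 differences from -0.71 to -0.25. At 16 h the normexp difference was 1.48 for Bcas3os1. It was within 2-fold for 4933427I04Rik (0.75), Gm38762 (0.95) and Gm36656 (0.59).

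**Figure D5:**
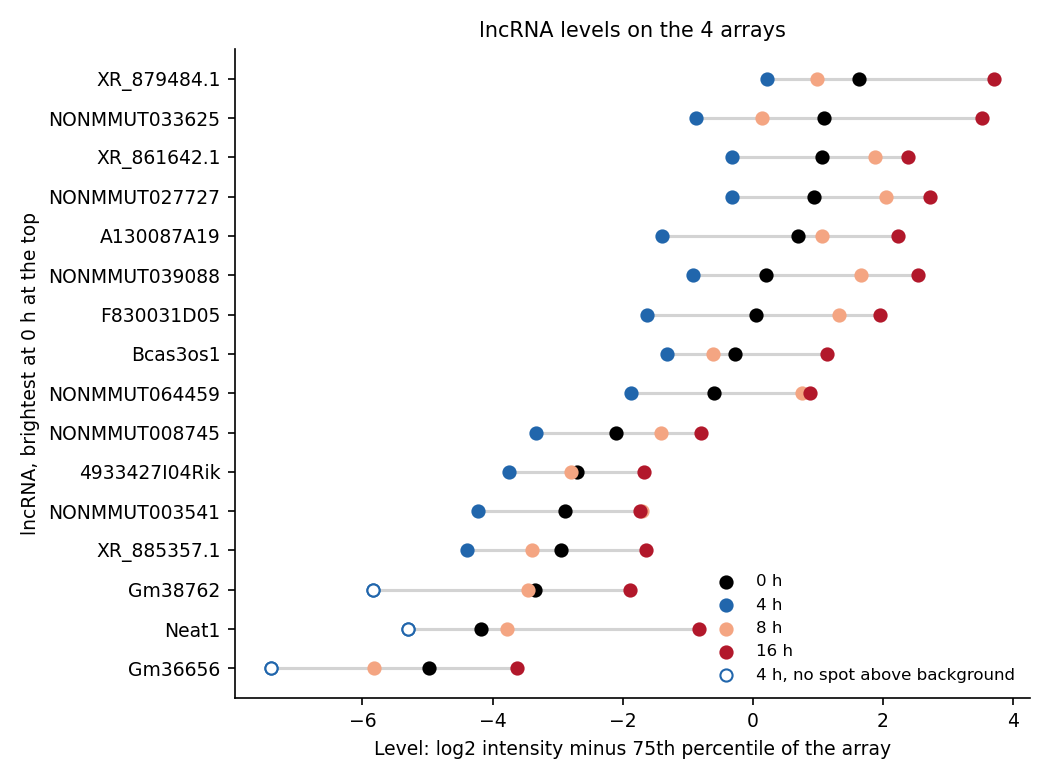
Level (x axis, log2 intensity relative to the 75th percentile of its array) at 0, 4, 8 and 16 h for 16 named lncRNAs, ordered by intensity at 0 h, with a grey line from 4 h to 16 h. The 8 h point lies left of the 0 h point in XR_879484.1 and NONMMUT033625 and right of it in F830031D05 and NONMMUT039088, and open 4 h points (Gm38762, Neat1 and Gm36656) have no spot above background.

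Some lncRNAs were singled out after their values were seen. Clone E230031J17, with 1 spot, had the largest pattern by the smaller of its differences, -2.39 at 4 h and 2.57 at 16 h, and its intensities were 97.6, 17.6, 256 and 480 at 0, 4, 8 and 16 h. The 5 lncRNAs with 8 h values more than 2-fold lower too were NONMMUT070470, NONMMUT067307, NONMMUT074771, A130010K15 and 8030444H24. For NONMMUT074771, with no spot above background at 8 h, the 8 h level was at least 1.34-fold lower than at 0 h, so that a 2-fold difference was not measured. NONMMUT070470 was lost on the middle arrays, with intensities of 41.3 and 47.2 in its spots at 0 h. They fell to 5.15 and 2.82 after 4 h, stayed low with 2.45 and 3.97 after 8 h, and were 72.9 and 74.8 after 16 h. No spot was well above background at 4 h and 8 h, and it was at least 3.02-fold lower at 4 h and at least 3.34-fold lower at 8 h than at 0 h. At the other end, clone B930082I23 was at 18.3, 7.33, 97.6 and 48.5, with its highest intensity at 8 h. It has 1 spot, which was not well above background at 4 h, so that its fall is a bound.

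Both probes of ultraconserved elements with this pattern, uc.mouse.26 and uc.mouse.27, have 1 spot and follow each other in number. The levels of uc.mouse.26 were -4.35, -5.72, -3.68 and -3.17 in order of time, and those of uc.mouse.27 were -4.52, -5.55, -3.10 and -2.37. Neither was well above background at 4 h, and the bounds there were at least 1.78-fold and 1.58-fold lower than at 0 h. Both rose at each step after 4 h.

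Of the mRNA probes with all spots above background on all arrays, A_55_P2068882 had the largest pattern by the smaller of its differences. Its levels were -1.73, -3.91, -1.42 and 0.45 at 0, 4, 8 and 16 h, which gives -2.18 at 4 h and 2.18 at 16 h. The next, A_55_P2158990, was the brightest of all 120 probes at 0 h, with intensities of 3706, 786, 8198 and 14893. Its spots differed little, with -2.17 and -2.15 at 4 h and 2.27 and 2.29 at 16 h, and the log2 differences with normexp were -2.09 and 2.28. At the limit, A_66_P131323 had -1.0 at 4 h and the highest 16 h difference of the 120 probes, 4.75, with intensities of 36.1, 17.1, 506 and 802 and 1 of its 2 spots above background at 4 h. Its 8 h difference was already 3.92, and with normexp its 4 h difference was -0.26.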

How the data were processed

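Total RNA of RAW264.7 cells was labelled with Cy3 and hybridized to 1 Agilent mouse lncRNA array per time point. The intensity values were deposited by the authors as Agilent Feature Extraction files (version 11.5.1.1 in the headers, 10.7 in the labels), after background subtraction by the scanner software and before any scaling of arrays to each other. The authors also deposited a table of normalized log2 values (their methods name GeneSpring), which was used as an alternative. The scores and flags per spot, such as well above background, are those of the scanner software.

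Control spots and spots marked as outliers (79 to 420 per array of 175906) were left out, intensities were put on the log2 scale and averaged per probe, and each array was centred on its 75th percentile over the 97836 probes. That percentile corresponded to intensities of 440 to 531, 70.9% to 73.3% of probes had all spots well above background, and 0 spots were saturated. A probe was taken as mRNA where it had an Agilent catalogue number. The number of arrays limits the precision.

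The probes, gene lists and alternatives were chosen with earlier results of these data known. Named lncRNAs were the 10 largest by the smaller of the differences at 4 h and 16 h among those with 2 spots, both above background on all arrays, those that kept the pattern with normexp, those named by the gene table and those nearest the limits. For mRNA probes, at most 2 were named, apart from 1 nearest the limit and A_55_P2302651, given as an example of a spot not well above background. Python 3.11.15, numpy 2.4.6, pandas 2.3.3 and limma 3.58.1 in R 4.3.3 (normexp on the median signals, offset 50) were used.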

Additional observations from a re-analysis of the deposited data

Results flagged for a closer look

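The 120 probes had values lower than at 0 h at 4 h and higher at 16 h. These are opposite directions in differences that share the 0 h array. These directions follow from how the probes were chosen, and with 1 array each, 4 h and 16 h were not tested against each other. Of them, 5 lncRNA probes were lower than at 0 h by over 2-fold at 8 h as well and higher at 16 h, a difference that was not tested either. For NONMMUT074771, with no spot above background at 8 h, the lower 8 h level is a bound of at least 1.34-fold.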

How the results depend on the processing

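The number of probes stayed within 1.5 times for both classes together and for each class with quantile normalization (118), the percentile taken over probes above background throughout (105), 1 spot above background at 0 h (135), outlier spots kept (121) and the deposited table (118). With normexp it fell to 25 (18 mRNA, 7 lncRNA), with medians of 0.24 and 0.89 for the 8 h difference (0.31 and 0.11 over the same 120 probes) and 0% not above background at 4 h in both classes. Its offset shrinks the differences of dim spots. Without a filter on dim probes there were 183, of which 108 were lncRNA, and 50.7% of mRNA and 60.2% of lncRNA probes had not all spots above background at 4 h. With all spots above background on all 4 arrays, 43 lncRNA probes were left, and the medians at 8 h were 0.37 for mRNA and 0.35 for lncRNA. A 1.5-fold limit gave 724 (337 mRNA, 387 lncRNA), medians at 8 h of 0.27 for mRNA and 0.22 for lncRNA and 16.3% of mRNA probes not above background at 4 h. A 3-fold limit gave 13 (7 mRNA, 6 lncRNA), with 71.4% of these mRNA probes not above background at 4 h and medians at 8 h of 0.61 for mRNA and 0.95 for lncRNA. The first spot alone chose 33 lncRNA probes and the second 51, among probes with 2 spots, and the cause was not tested. Of the 44 differences of named probes, 31 moved under normexp by more than the scanner's error and 0 under the other settings, and 0 reversed under normexp, quantile normalization, the other percentile, outlier spots kept or the deposited table. No paired analysis was possible because each time point has 1 array.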

Other observations

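Of the 29 NONCODE transcripts with the pattern, 3 pairs had numbers no more than 10 apart, which was noticed in the data. Such pairs were not counted over all 20440 NONCODE probes above background at 0 h. Whether 3 is many or few was thus not tested. The sources used here do not say whether transcripts of near number share a locus. The pairs were NONMMUT018554 with NONMMUT018561, NONMMUT042325 with NONMMUT042333 and NONMMUT052496 with NONMMUT052500. At 4 h, NONMMUT018554, NONMMUT018561 and NONMMUT042333 had no spot well above background, so their falls are bounds. NONMMUT052500 had 1 such spot of 2. In the first pair, NONMMUT018555 and NONMMUT018557 lie between them with log2 differences from 0 h of -0.19 and -0.75 at 4 h and 0.37 and 0.76 at 16 h. NONMMUT018558 had 0.94 at 16 h, and its 4 h level of -5.99 was under that of the dimmest probe well above background there, -5.18. The 4 h level of NONMMUT018557, -5.59, was under it too. In the second, NONMMUT042330 and NONMMUT042332 lie between them with 16 h differences of 1.66 and 2.06 and 4 h differences of 0.61 and -0.04, while NONMMUT042331 had -0.07 at 16 h. In the third, NONMMUT052499 had -0.63 at 4 h and 1.94 at 16 h. The transcripts between the pairs thus did not all move with them.

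The spots of the 120 probes lay in all parts of the array, though not evenly. When it was divided into 8 blocks, each held 12.2% to 12.7% of the spots of probes that passed the filter and 8.02% to 17.0% of the spots of these probes. Of the 120 probes, 119 are in the deposited table, and the exception is clone 9630015E22, whose spots differ at 16 h.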
